A study of Mus musculus with 8 samples.

Results

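The Mrgpr and itch receptor genes described here are 9 genes for receptors of non-peptidergic and itch-sensing neurons in the dorsal root ganglia of the mouse: Mrgprd, Lpar3, Mrgpra3, Mrgprx1, Mrgprb4, Mrgprb5, Mrgpra2a, Il31ra and Cysltr2. They were taken by symbol, and all 9 were found among the 53801 genes of the deposited count table. RNA was sequenced from pools of 3 mice, which the labels describe as male C57BL/6J, after the left L4 spinal nerve had been tied tightly with silk. The groups set side by side were 3 libraries of the injured side (days 1, 3 and 7), 3 libraries of the contralateral side of the same mice (days 1, 3 and 7), and 2 libraries, left and right, of a pool labelled no injury and WT. Ganglia L3 to L5 were pooled, so an injured-side library also holds ganglia whose own nerve was not tied. The operation that the labels describe for sham controls is not named for any of the 8 libraries, and the labels give no age.

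The cell bodies of the sensory neurons of trunk and limbs lie in these ganglia, and the non-peptidergic C-fibre neurons among them form 3 known classes, called NP1, NP2 and NP3. Mas-related G protein-coupled receptors (Mrgprs) are a rodent-expanded family that detects small molecules and peptides at the nerve endings in the skin, and the transcription factor Runx1 is known to be needed for the expression of many of them. Mrgprd, with the lysophosphatidic acid receptor gene Lpar3, marks the NP1 class, Mrgpra3 and Mrgprx1 mark the itch-sensing NP2 class, and Il31ra and Cysltr2 mark the NP3 class, which also carries the peptides natriuretic polypeptide b and somatostatin.

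The 6 Mrgpr genes all lie on chromosome 7 (GRCm38, GENCODE M21), and each of the 9 is a protein-coding gene. Mrgpra2a (47426328 to 47452139), Mrgpra3 (47588950 to 47601372), Mrgprx1 (48020971 to 48027597), Mrgprb5 (48167983 to 48169019) and Mrgprb4 (48198070 to 48199288) are clustered on the minus strand, and Mrgprd stands apart at 145314835 to 145324086 on the plus strand. Il31ra is on chromosome 13 (112519898 to 112594360, minus strand), Cysltr2 on chromosome 14 (73025603 to 73049114, minus strand) and Lpar3 on chromosome 3 (146220963 to 146286186, plus strand).

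Likeness within the cluster bears on which gene a read was counted for. Of the 50-base stretches of Mrgpra2a transcripts, 87.1% also occur in Mrgpra2b, and the longest reading frames of these genes were 99.8% identical, so most reads of 1 of them could not be told from reads of the other. The other members shared little: 7.14% of such stretches of Mrgpra3 and 5.84% of those of Mrgprx1 occurred in any other gene, 1.45% for Mrgprb4, 1.03% for Cysltr2, 0.81% for Mrgprb5 and 0.379% for Il31ra, with 0% for Mrgprd and Lpar3. Among the members the closest reading frames were those of Mrgprb4 and Mrgprb5 (84.3% identical) and of Mrgpra3 and Mrgpra2a (80.5%), whereas Mrgprd was 50.2% to 53.8% identical to the 5 clustered genes. The same neighbours Mrgprb4 and Mrgprb5 were also alike around their RefSeq starts. Their promoter windows, 250 bases before to 50 bases after the start (RefSeq, GRCm38.p6), were 82.0% identical, with 54 of 300 aligned positions different and 0 gaps. Both windows reach into the genes as GENCODE M21 places them, with 5′ ends at 48199288 (Mrgprb4) and 48169019 (Mrgprb5). Part of this likeness is therefore that of transcribed sequence. The other pairs of windows among 8 members were 36.2% to 44.5% identical; Mrgpra3 was not among the windows used. Both windows are shown 5′ to 3′ on the minus strand, for chr7:48199129-48199428 (Mrgprb4) and chr7:48168936-48169235 (Mrgprb5), with capitals at the positions where the pair differs.
Mrgprb4: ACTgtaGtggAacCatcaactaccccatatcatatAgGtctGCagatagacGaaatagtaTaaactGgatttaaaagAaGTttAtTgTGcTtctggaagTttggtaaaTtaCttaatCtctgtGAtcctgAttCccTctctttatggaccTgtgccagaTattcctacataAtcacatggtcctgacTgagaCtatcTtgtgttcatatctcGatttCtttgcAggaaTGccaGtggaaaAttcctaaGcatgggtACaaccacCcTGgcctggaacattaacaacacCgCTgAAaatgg
Mrgprb5: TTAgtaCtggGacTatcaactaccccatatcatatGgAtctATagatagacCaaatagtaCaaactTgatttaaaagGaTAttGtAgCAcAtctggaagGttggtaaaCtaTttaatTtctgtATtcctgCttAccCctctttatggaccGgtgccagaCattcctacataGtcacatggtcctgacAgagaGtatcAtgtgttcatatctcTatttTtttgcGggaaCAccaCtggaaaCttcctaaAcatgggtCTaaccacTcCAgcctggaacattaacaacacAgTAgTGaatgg
The 8 windows were searched on both strands for TGTGGT and TGCGGT, the core letters that RUNX factors bind, and 0 of 8 held either. Of 27025 genes with a window, 25.0% held at least 1 match. A window without these letters says nothing of sites elsewhere.

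The libraries were of nearly equal depth, 20488115 to 21652688 reads, so the 3 reads that a count of 0 still allows correspond to at most 0.1464 CPM (counts per library scaled to a common total). Atf3, a transcription factor gene known to be switched on in axotomised neurons, was at 464 to 629 CPM in the injured libraries, 110 to 167 CPM in the contralateral and 10.9 and 11 CPM in the no-injury libraries, in the order the labels give, and the contralateral libraries were thus not at the no-injury level. Sprr1a, also part of this check, was at 9.13, 466 and 915 CPM in the injured libraries of days 1, 3 and 7. It was at 3.52, 126 and 130 CPM in the contralateral and 0.145 and 0.323 CPM in the no-injury libraries. Within each pool the injured side was higher, but its day 1 injured library lay below the contralateral libraries of days 3 and 7. The pool labelled no injury did not carry the labelled sex: Xist, expressed from the inactive X of females, had at most 3 reads per operated library but 4931 and 4129 reads in the no-injury libraries, and the Y-linked Kdm5d had 13.1 to 16.7 CPM in operated libraries and 0 reads without injury. Each difference from that pool can therefore not be told apart from a difference of sex or pool. Pan-neuronal markers of the ganglion were abundant in all libraries, 19 genes summing to 27200 to 29500 CPM on the injured side, 28500 to 29400 CPM on the contralateral side and 28000 to 28500 CPM without injury.

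After spinal nerve ligation most of these receptor genes were lower on the injured side. Mrgprd, Lpar3, Mrgpra3, Mrgprx1 and Mrgprb5 fell to between 0.481 and 0.698 of the contralateral level. Mrgprb4 and Mrgpra2a were lower without passing the test, and Il31ra and Cysltr2 did not share the direction in every pool. With the pool as a block, each injured library is set against the contralateral library of the same mice, and the no-injury pool adds to the spread estimate. Summed over the 9 genes, the level was 279, 196 and 219 CPM in the injured libraries of days 1, 3 and 7, compared with 310, 337 and 319 CPM in the contralateral libraries and 336 and 331 CPM without injury. All 9 genes passed the filter on low counts, Mrgpra2a through contralateral and no-injury libraries alone. At an adjusted p under 0.05 in edgeR's quasi-likelihood test, with the pool as a block, 5 of the 9 were lower and 0 higher on the injured side, against 8.02% lower and 10.1% higher of all 16244 genes tested. By DESeq2 the counts were also 5 and 0, and Il31ra alone was higher at an unadjusted p under 0.05. The median log2 fold change of the 9 was -0.77 and that of all genes tested 0.02. Without the day 7 pool 2 of the 9 were called lower, without the no-injury pool 3, without the day 1 pool 7, and with left or right side as a further term 0. In bulk RNA, fewer cells of a type and less RNA per cell cannot be told apart.

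**Figure D1:**
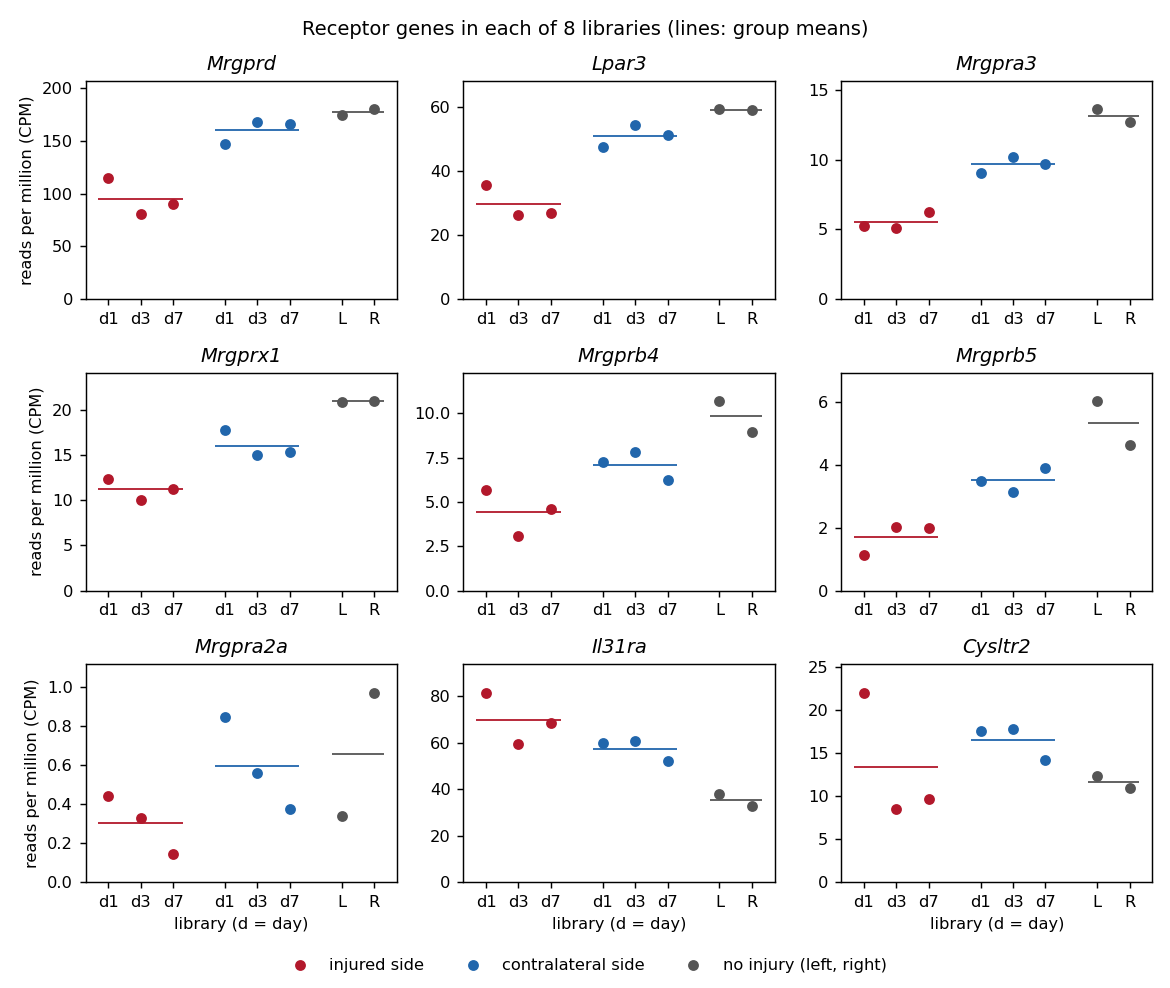
Level in CPM of each of the 9 receptor genes in each of the 8 libraries (1 point per library, d1, d3 and d7 for days, L and R for left and right; lines are group means, and each y axis starts at 0). For 6 genes every injured library lies below every contralateral library, while Il31ra is lowest in the 2 no-injury libraries.

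For 6 of the 9 genes, Mrgprd, Lpar3, Mrgpra3, Mrgprx1, Mrgprb4 and Mrgprb5, the 3 injured libraries did not overlap with the 3 contralateral ones and lay below them, which held for 15.7% of all genes tested. In 0 of the 9 did the injured libraries all lie above (14.7% of all genes).

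Both NP1 receptor genes fell, in parallel. Mrgprd, which encodes the receptor for beta-alanine on epidermal nociceptor endings, was at 115, 80.9 and 89.8 CPM in the injured libraries of days 1, 3 and 7, compared with 147, 168 and 166 CPM in the contralateral libraries and 175 and 180 CPM without injury. The day 1 injured library stood nearest to the uninjured ones, and the injured group did not overlap with either other group. The log2 fold change was -0.77 ± 0.14 (SE, 3 injured pools, lower in 3 of 3), with an edgeR quasi-likelihood adjusted p of 0.021. Over 14 alternative settings the direction held and the adjusted p ran from 4.72e-07 to 0.557, past the threshold in 9; without the day 7 pool it was 0.121, without the day 3 pool 0.061, without the no-injury pool 0.0512 and without the filter on low counts 0.0745.

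Lpar3, which encodes a receptor for lysophosphatidic acid, was at 35.5, 26.2 and 26.8 CPM in the injured libraries of days 1, 3 and 7, compared with 47.4, 54.2 and 51.1 CPM in the contralateral libraries and 59.1 and 58.9 CPM without injury. It followed Mrgprd library by library. Its log2 fold change was -0.80 ± 0.13 (SE, lower in 3 of 3 pools; edgeR adjusted p = 0.0129), and the call held in 12 of 14 settings (adjusted p 1.2e-06 to 0.512), being lost without the day 7 pool (0.0918). Within a library there were 0.309, 0.323 and 0.298 Lpar3 reads per Mrgprd read in the injured libraries of days 1, 3 and 7, compared with 0.323, 0.322 and 0.308 on the contralateral side and 0.338 and 0.327 without injury. This ratio of reads spans a narrow range over all 8 libraries, although the level of each gene did not.

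The receptor genes of the itch-sensing NP2 class were scarcer per kilobase of exon than Mrgprd and Lpar3 in each group, and both fell. Mrgpra3, the receptor through which chloroquine evokes itch in mice, was at 5.27, 5.11 and 6.25 CPM in the injured libraries of days 1, 3 and 7, compared with 9.06, 10.2 and 9.7 CPM in the contralateral libraries and 13.6 and 12.7 CPM without injury. The 3 groups did not overlap, with the contralateral libraries between the others. The log2 fold change was -0.81 ± 0.12 (SE, lower in 3 of 3 pools; edgeR adjusted p = 0.00575), and 13 of 14 settings kept the call (adjusted p 8.29e-05 to 0.453). Set against the no-injury libraries alone, the value was -1.24 (edgeR adjusted p = 0.0128). Mrgprx1, known as MrgprC11 in older work and as a receptor of itch-evoking peptides, was at 12.4, 10 and 11.3 CPM in the injured libraries of days 1, 3 and 7, compared with 17.8, 15.0 and 15.4 CPM in the contralateral libraries and 20.9 and 21 CPM without injury. Its groups were again apart and in the same order. The log2 fold change was the smallest of the 5 called, -0.52 ± 0.08 (SE, lower in 3 of 3 pools; edgeR adjusted p = 0.00658), with the call kept in 13 of 14 settings (0.000438 to 0.494) and a value of -0.89 against the no-injury libraries alone.

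Mrgprb4 is known in mice as the marker of C-fibre neurons that respond to gentle stroking of the skin. It was at 5.66, 3.07 and 4.59 CPM in the injured libraries of days 1, 3 and 7, compared with 7.28, 7.81 and 6.26 CPM in the contralateral libraries and 10.7 and 8.96 CPM without injury. The groups did not overlap, but the day 1 and day 3 injured libraries differed widely. Its log2 value of -0.71 ± 0.21 (SE, lower in 3 of 3 pools) missed the threshold (edgeR adjusted p = 0.0577; -1.14 and 0.0623 against the no-injury libraries alone), and over 14 settings the adjusted p ran from 0.0184 to 0.565, past the threshold in 3, among them the fit without the day 1 pool (0.0184). Its neighbour Mrgprb5 had 23, 43 and 42 reads in the injured libraries of days 1, 3 and 7, compared with 74, 67 and 83 reads in the contralateral libraries and 125 and 100 reads without injury, or 1.71 ± 0.513 CPM in injured (SD, n = 3), 3.51 ± 0.388 CPM in contralateral (SD, n = 3) and 5.32 ± 0.995 CPM in no-injury libraries (SD, n = 2). The groups did not overlap. It had the largest fall of the 9 by point value, -1.06 ± 0.23 (log2, SE, lower in 3 of 3 pools, edgeR adjusted p = 0.0214). The call was kept in 11 of 14 settings (0.00211 to 0.484) and lost without the day 7 pool (0.105) or the no-injury pool (0.058). Against the no-injury libraries alone the value was -1.63. This rank depended on the day 1 pool, without which Mrgprb5 was at -0.824, Mrgprd at -0.996 and Lpar3 at -1.015.

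Mrgpra2a was near the limit of detection, with 9, 7 and 3 reads in the injured libraries of days 1, 3 and 7, compared with 18, 12 and 8 reads in the contralateral libraries and 7 and 21 reads without injury. The groups overlapped. Its log2 value of -0.97 ± 0.49 (SE, edgeR adjusted p = 0.205) was not distinguishable from no change with so few counted reads. Mrgpra2b, with which it shares most of its sequence, had 0.683, 0.709 and 0.994 CPM on the injured side, 0.798, 1.78 and 1.27 CPM in the contralateral libraries and 1.88 and 1.25 CPM without injury, with a log2 value of -0.66 (edgeR adjusted p = 0.207). How reads matching both genes were counted is not given, so these counts may not show the level of either gene.

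Neither NP3 receptor gene passed the test of the injury effect. Il31ra, which encodes the ligand-binding subunit of the receptor for the itch cytokine interleukin-31, was at 81.6, 59.6 and 68.7 CPM in the injured libraries of days 1, 3 and 7, compared with 59.8, 60.6 and 52.0 CPM in the contralateral libraries and 38.1 and 32.9 CPM without injury. It was higher on the injured side at days 1 and 7 and about level at day 3, and all 6 operated libraries lay above both no-injury libraries. The injury effect of 0.27 ± 0.11 (log2, SE, higher in 2 of 3 pools) was not called (edgeR adjusted p = 0.137), and over 14 settings the adjusted p ran from 0.0238 to 0.931. Without the day 3 pool the value was 0.44 (adjusted p = 0.0238), and against the no-injury libraries alone it was 0.99 (adjusted p = 0.0287). Cysltr2, which encodes a receptor for cysteinyl leukotrienes, was at 22, 8.47 and 9.7 CPM in the injured libraries of days 1, 3 and 7, compared with 17.5, 17.8 and 14.2 CPM in the contralateral libraries and 12.3 and 10.9 CPM without injury. The day 1 injured library was the highest of all 8 and the day 3 and day 7 injured libraries were the lowest. The log2 value of -0.41 ± 0.28 (SE, lower in 2 of 3 pools) was not called (edgeR adjusted p = 0.351; 0.00286 to 0.882 over 14 settings). It depended on single pools: without the day 1 pool the value was -0.83 (adjusted p = 0.00286), and without the day 3 pool -0.07 (adjusted p = 0.882).

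**Figure D2:**
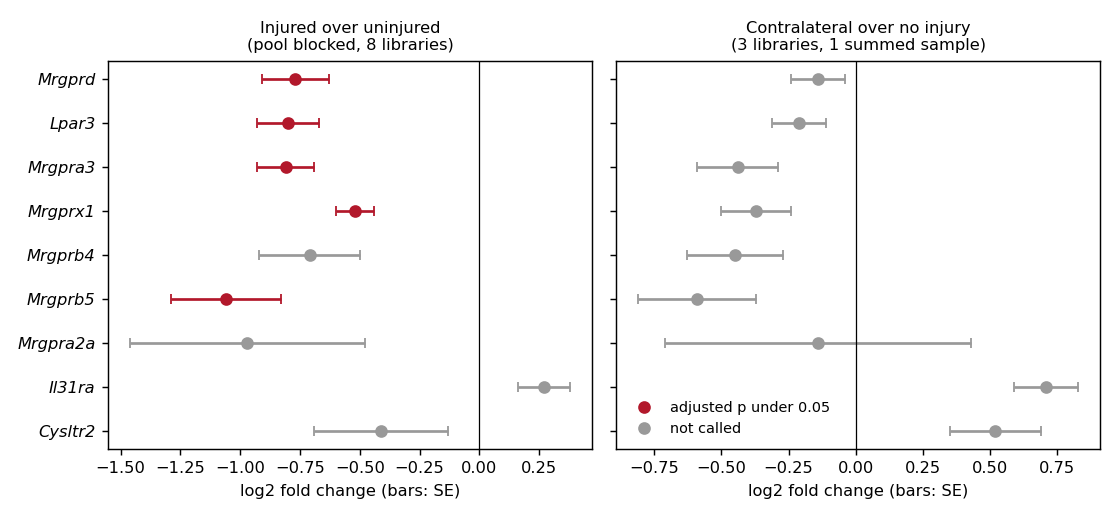
Log2 fold change of the 9 receptor genes (points, with bars for the SE) on the injured over the uninjured side with the pool as a block (left), and in the 3 contralateral libraries over the summed no-injury libraries (right). Red points have an edgeR adjusted p under 0.05: 5 genes lie below 0 on the left, and on the right 0 are called although Il31ra is at 0.71.

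The balance of the receptors within a library, a measure that needs no scaling between libraries and was chosen after the values were seen, shows the contrast of Il31ra and Mrgprd directly. There were 0.711, 0.737 and 0.765 Il31ra reads per Mrgprd read in the injured libraries of days 1, 3 and 7, compared with 0.408, 0.361 and 0.313 on the contralateral side and 0.218 and 0.183 without injury. The 3 groups did not overlap. The ratio was 2.06-fold higher on the injured side (mean log2 difference 1.04 ± 0.24, SD, n = 3 pools, higher in 3 of 3), with a two-sided exact sign-flip permutation p of 0.25, the smallest that 3 pools allow. The log2 injury effects of the genes themselves were 0.27 for Il31ra (not called) and -0.77 for Mrgprd, so the fall of Mrgprd made the larger part. Cysltr2 had 0.191, 0.105 and 0.108 reads per Mrgprd read on the injured side, against 0.119, 0.106 and 0.0855 on the contralateral side and 0.0703 and 0.0605 without injury. Here the operated groups overlapped, with a mean log2 difference of 0.34 ± 0.35 (SD, n = 3 pools; exact permutation p = 0.5).

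**Figure D3:**
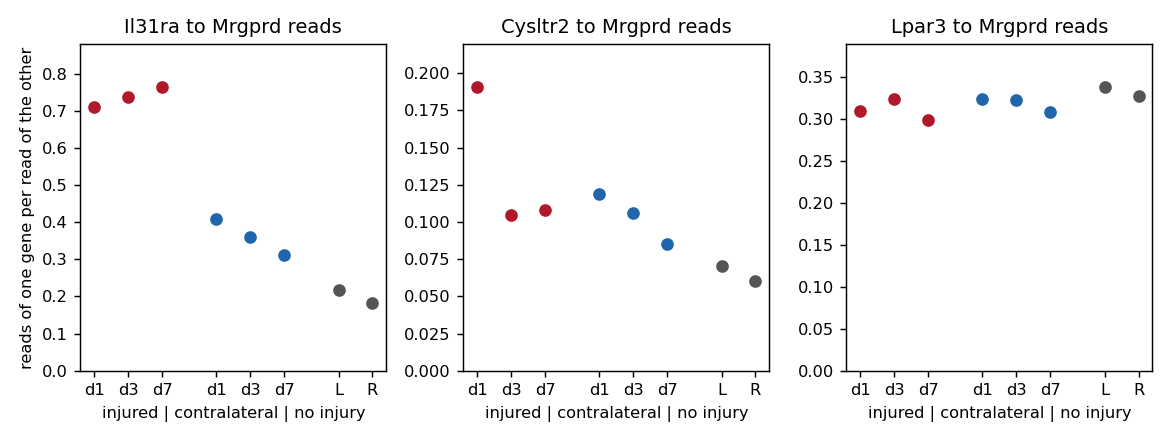
Reads of Il31ra, Cysltr2 and Lpar3 per read of Mrgprd within each of the 8 libraries (1 point per library; red, injured side, blue, contralateral side, grey, no injury; each y axis starts at 0). The Il31ra ratio is at 0.711 to 0.765 in the injured, 0.313 to 0.408 in the contralateral and 0.183 to 0.218 in the no-injury libraries, whereas the Lpar3 ratio stays between 0.298 and 0.338.

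Set side by side per kilobase of exon, Mrgprd led in every group, at 30.3 ± 5.58 CPM per kb on the injured side (SD, n = 3), 51.0 ± 3.8 on the contralateral side (SD, n = 3) and 56.5 ± 1.17 without injury (SD, n = 2). Below it the order differed between groups. On the injured side Il31ra (12.3 CPM per kb) and Lpar3 (12.0) overlapped, followed by Mrgprx1 (9.53), then Cysltr2 (4.66), Mrgpra3 (4.28) and Mrgprb4 (3.64), neighbours that overlapped, then Mrgprb5 (1.65) and Mrgpra2a (0.245). On the contralateral side Lpar3 (20.7) and Mrgprx1 (13.6) stood above Il31ra (10.1), followed by Mrgpra3 (7.45), the overlapping Mrgprb4 (5.84) and Cysltr2 (5.74), Mrgprb5 (3.38) and Mrgpra2a (0.479). Without injury Il31ra (6.26) came behind Lpar3 (24.0), Mrgprx1 (17.7), Mrgpra3 (10.2) and Mrgprb4 (8.06), overlapping with Mrgprb5 (5.13) and above Cysltr2 (4.04) and Mrgpra2a (0.527). By these means 1 of the other genes, Mrgprd, stood above Il31ra on the injured side, 3 on the contralateral side and 5 without injury. The last place of Mrgpra2a is uncertain, since most of its sequence also occurs in Mrgpra2b and the counting of shared reads is not given.

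Each day has 1 library per side, so a ratio at any single day stands without a replicate. At day 1 the log2 ratio of the injured to the contralateral library was -1.52 for Mrgprb5 and -0.74 for Mrgpra3, and these 2 of the 8 genes with at least 50 reads were more than 1.5-fold lower, against 3.43% of all genes. Mrgprd (-0.32) and Lpar3 (-0.39) had their smallest falls there, and Il31ra (0.48) and Cysltr2 (0.36) were above 0. At day 3, 7 of the 8 were past that limit (6.84% of all genes), with Mrgprb4 at -1.38, Mrgprd and Cysltr2 at -1.12, Lpar3 at -1.11, Mrgpra3 at -1.04, Mrgprb5 at -0.66 and Mrgprx1 at -0.63. Il31ra was the exception at -0.08. At day 7, 4 of the 8 were past the limit (5.59% of all genes), Mrgprb5 at -0.95, Lpar3 at -0.94, Mrgprd at -0.90 and Mrgpra3 at -0.64, while Cysltr2 was at -0.56 and Il31ra at 0.39. None of the 8 was more than 1.5-fold higher at day 1, 3 or 7 (3.82%, 12.6% and 7.15% of all genes). The left over right ratios of the no-injury pool lay between -0.06 and 0.36, with 0 of 8 past the limit in either direction (0.925% lower and 1.25% higher of all genes).

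**Figure D4:**
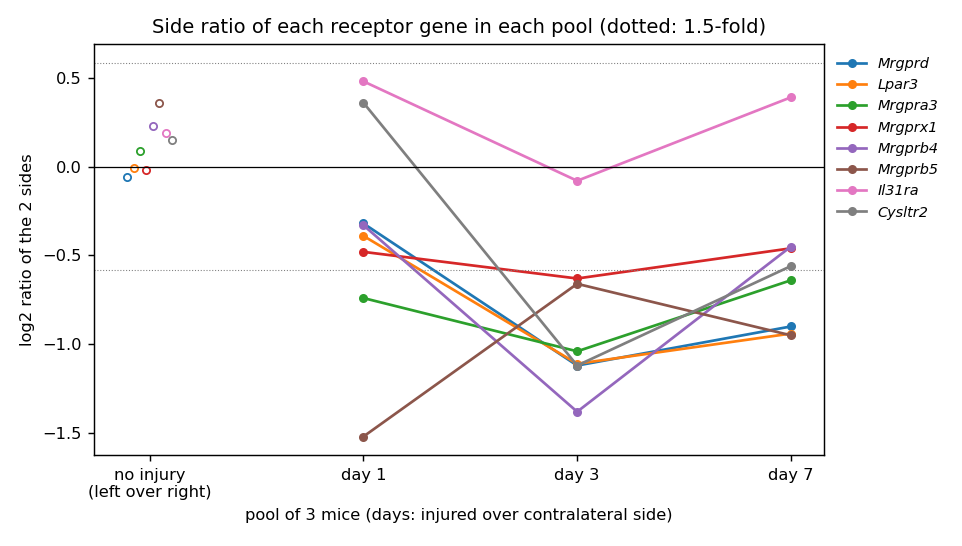
Log2 ratio of the injured to the contralateral library of 8 receptor genes in the pools of days 1, 3 and 7 (filled points joined by lines), and of left to right in the no-injury pool (open points); dotted lines mark 1.5-fold, and Mrgpra2a is left out for its few reads. Mrgprd and Lpar3 run together, from -0.32 and -0.39 at day 1 to -1.12 and -1.11 at day 3, and Il31ra stays between -0.08 and 0.48.

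Whether the side difference moved with time was tested as its slope on the log2 of the day. Of the 9 genes 0 were called in either direction, as were 0% of the 16244 genes tested (edgeR; 2 residual degrees of freedom), and DESeq2 called 0 of the 9. Of all genes 596 had a positive and 703 a negative slope at an unadjusted p under 0.05, and DESeq2 called 37 and 12. At an unadjusted p under 0.05, 2 of the 9 had falling slopes: Mrgprd, with a slope of -0.22 ± 0.09 (log2 per doubling of the day, SE; edgeR adjusted p = 0.618), and Lpar3, with -0.21 ± 0.08 (adjusted p = 0.595). Cysltr2 had a slope of -0.37 ± 0.19 (adjusted p = 0.708). A change over days was thus not detectable for these genes with 1 pool per day.

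The contralateral ganglia were next set against the no-injury pool, summed to 1 sample. Of the 9 genes 0 passed the test, against 0.155% lower and 0.125% higher of 16747 genes tested by edgeR; DESeq2 called 1, Il31ra. By edgeR at an unadjusted p under 0.05, 2 of the 9 were higher and 4 lower, against 687 higher and 793 lower of all genes tested; by DESeq2 0 of the 9 were lower at that p. Il31ra, with 57.5 ± 4.75 CPM on the contralateral side (SD, n = 3) and 35.5 ± 3.64 CPM without injury (SD, n = 2), had a log2 value of 0.71 ± 0.12 (SE; edgeR adjusted p = 0.0798). Over 8 alternative settings its adjusted p ran from 2.72e-09 to 0.599 and passed in 4, one of them the fit without the day 1 library. Cysltr2 was at 0.52 ± 0.17 (adjusted p = 0.386; 0.0373, without the day 1 library, to 0.834 over the settings). Mrgprb5 (-0.59), Mrgprb4 (-0.45), Mrgpra3 (-0.44), Mrgprx1 (-0.37), Lpar3 (-0.21), Mrgprd (-0.14) and Mrgpra2a (-0.14) were on the other side of 0, and of these Mrgprx1 passed the test without the day 1 library (-0.45, adjusted p = 0.0202; up to 0.862 in the other settings). The contralateral libraries lay wholly below the no-injury libraries for 6 genes (19.5% of all genes tested) and wholly above for Il31ra and Cysltr2 (17.9%). The injured libraries lay wholly below the no-injury libraries for the same 6 genes (26% of all genes) and wholly above for Il31ra (24%). Both comparisons use the same no-injury libraries, and injury, pool and sex cannot be told apart in them.

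Over the 8 libraries, which share groups and pools, Pearson's r between the log2 levels of members is given as a description. Mrgprd and Lpar3 had the highest r of the 36 pairs, 0.99, followed by Mrgprb4 and Mrgprx1 with 0.95, and Mrgprd had 0.91 with Mrgpra3 and with Mrgprx1. Il31ra had -0.58 with Mrgprd, -0.79 with Mrgpra3 and -0.87 with Mrgprb5, and 0.42 with Cysltr2. Among 13714 genes, those most like Lpar3 were the transporter gene Slc16a12 and Evi5 (0.997 each), and of these Slc16a12 had a fall close in size to that of Lpar3, at 13.7, 10.2 and 10.5 CPM in the injured libraries, compared with 19.6, 20.7 and 19.6 CPM in the contralateral libraries and 23.9 and 23.4 CPM without injury (log2 -0.82; edgeR adjusted p = 0.00472). Ppm1e and Fmnl1 (0.995 each) were most like Mrgprd, Hrasls and Cd55 like Mrgprx1 (0.99 and 0.988), and Htr1b, a serotonin receptor gene, like Mrgprb4 (0.991). Hspb11 (0.988) was most like Mrgprb5, Nt5c (0.977) like Mrgpra2a, Pmm2 (0.995) like Il31ra and Hook2 (0.987) like Cysltr2, and Klhl5 (0.989) was among those like Mrgpra3.

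Other genes of the same neuron classes, in lists that were chosen with earlier results known, are given by their counts. Among all genes tested 8.02% were called lower and 10.1% higher. Of 15 other NP1-class genes 7 fell, 1 rose and 7 were not called, with a median log2 value of -0.59. The kinase gene Prkcq was at 53.9, 55.9 and 56.3 CPM in the injured libraries of days 1, 3 and 7, compared with 80.6, 102 and 99.6 CPM in the contralateral libraries and 128 and 129 CPM without injury. Its injured libraries were nearly level and apart from the others, and it fell by 0.76 on the log2 scale (SE 0.07; edgeR adjusted p = 0.0017). The angiotensin receptor gene Agtr1a (-0.85, adjusted p = 0.00218) and Cd55 (-0.76, adjusted p = 0.0026) fell too, and Wnt2b rose (0.34). Runx1, the transcription factor named above, was at 58.1, 53.4 and 49.9 CPM in the injured libraries, compared with 69.5, 73.6 and 64.7 CPM in the contralateral libraries and 68.8 and 70.1 CPM without injury. Its injured libraries lay below all others, and it fell by 0.37 on the log2 scale (SE 0.06; edgeR adjusted p = 0.0109).

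Of the 11 other NP2-class genes tested 3 fell and 1 rose, with a median of -0.30. Otoa fell by 0.95 on the log2 scale (edgeR adjusted p = 0.0036), Cpne3 by 0.46 and the phospholipase gene Plcb3 by 0.56, while the GDNF receptor gene Gfra1 rose by 1.10 (adjusted p = 0.0057). Gfra1 was at 347, 597 and 622 CPM in the injured libraries, compared with 216, 271 and 223 CPM in the contralateral libraries and 178 and 188 CPM without injury. The gene is known in other ganglion cells as well. Of the 12 other NP3-class genes 1, Trpc6, fell (-0.74, adjusted p = 0.00338), 1, Cavin1, rose (0.46) and 10 were not called, with a median of -0.22. These NP3 counts stood near the shares of all genes tested, 8.02% lower and 10.1% higher. The peptide gene Nppb was at 19.4, 7.95 and 8.28 CPM in the injured libraries of days 1, 3 and 7, compared with 14.4, 11.2 and 9.13 CPM in the contralateral libraries and 10.1 and 8.82 CPM without injury, high at day 1 on the injured side as Cysltr2 was. Its log2 value was -0.05 (edgeR adjusted p = 0.866). Sst, which encodes somatostatin, was at 4.78, 2.79 and 3.31 CPM in the injured libraries, compared with 5.54, 8.28 and 6.17 CPM in the contralateral libraries and 6.07 and 5.08 CPM without injury. Its injured libraries lay below all others, and its log2 value of -0.89 ± 0.26 (SE) missed the threshold (edgeR adjusted p = 0.0551). Osmr, the partner subunit of Il31ra in the interleukin-31 receptor, was at 89.4, 69.9 and 69.2 CPM in the injured libraries, compared with 88.8, 76.4 and 70.2 CPM in the contralateral libraries and 53.3 and 56.2 CPM without injury. Like Il31ra it was higher in all 6 operated libraries than in both no-injury libraries, with a log2 value of -0.05 for the injury effect and 0.53 for the contralateral comparison (edgeR adjusted p = 0.598 and 0.295).

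Among the 33 genes of the table whose symbol begins with Mrgpr, 32 are on chromosome 7, 27 are not among the 9, and 8 of those 27 passed the filter, while 7 had no read in any library. Of the 8, 0 fell and 1 rose, with a median of -0.33, against 8.02% lower and 10.1% higher of all genes tested. The gene that rose was Mrgprf, upstream of Mrgprd on the same chromosome (145300828 to 145309557), with 4.2, 6.72 and 5.54 CPM in the injured libraries of days 1, 3 and 7, compared with 2.49, 2.06 and 4.14 CPM in the contralateral libraries and 5.69 and 4.62 CPM without injury. Its injured libraries were above the contralateral ones and overlapped with the no-injury ones (log2 0.94 ± 0.24, SE; edgeR adjusted p = 0.0372). The pseudogene Mrgprx3-ps was at 32.4, 15.5 and 16.2 CPM in the injured libraries, compared with 35.6, 27.5 and 32.2 CPM in the contralateral libraries and 37.5 and 36.2 CPM without injury, highest of the family in CPM after Mrgprd in the no-injury libraries (log2 -0.64; edgeR adjusted p = 0.0533). Mrgpre, at 26.4 to 38.1 CPM on the injured side, 28.6 to 34.6 CPM in the contralateral libraries and 32.1 and 32.9 CPM without injury, had a log2 value of 0.08 (adjusted p = 0.562).

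**Figure D5:**
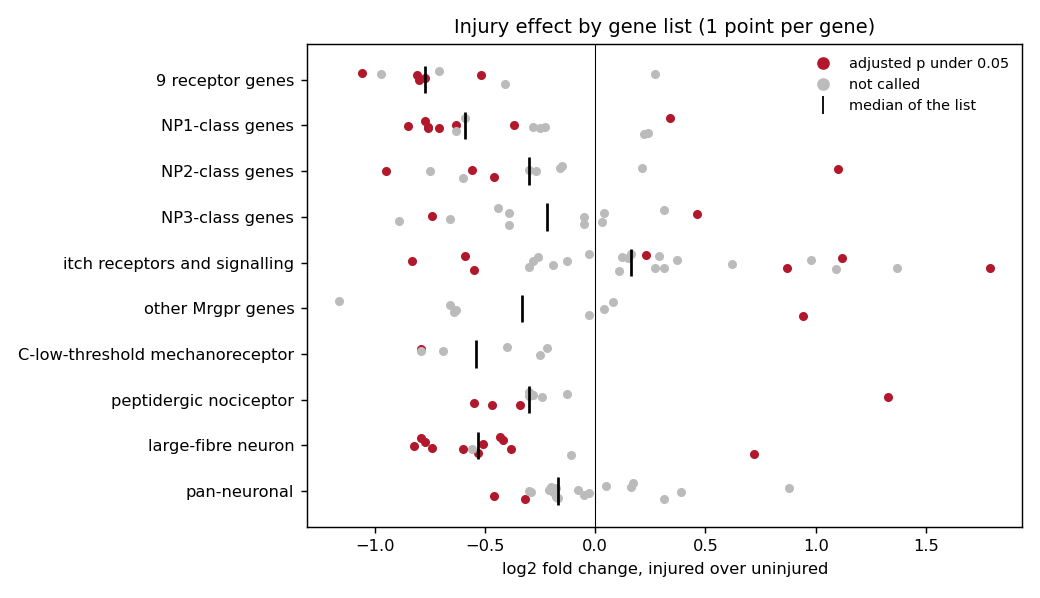
Log2 fold change on the injured over the uninjured side for the 9 receptor genes and for related gene lists (1 point per gene, scattered vertically for sight; red, edgeR adjusted p under 0.05; black line, median of the list). The medians are -0.77 for the 9 receptor genes, -0.59, -0.30 and -0.22 for the other NP1-, NP2- and NP3-class genes and -0.17 for pan-neuronal genes. Those of C-low-threshold mechanoreceptor and large-fibre neuron genes, at -0.54 and -0.53, are near the NP1 median, and that of peptidergic nociceptor genes is -0.30.

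Markers of other cells are given by their counts as well, to be read against all genes tested, of which 8.02% were called lower and 10.1% higher. Among 13 genes of large-fibre neurons, 10 were called lower and 1 higher, Spp1 (0.72, edgeR adjusted p = 0.0433), with a median of -0.53. Of 19 pan-neuronal genes 2 fell and 0 rose, with a median of -0.17. Of 12 macrophage genes 2 rose and 0 fell, with a median of 1.08. Their summed level was 101, 457 and 450 CPM in the injured libraries of days 1, 3 and 7, compared with 138, 124 and 215 CPM in the contralateral libraries and 218 and 154 CPM without injury. The day 1 injured library was thus the lowest of all. Of 7 fibroblast genes 3 rose and 0 fell, with a median of 0.92. These summed to 707, 1980 and 1520 CPM in the injured libraries, compared with 481, 666 and 1050 CPM in the contralateral libraries and 1420 and 1260 CPM without injury. The part of these cells' RNA in the lower CPM was not tested. With the libraries scaled by the pan-neuronal genes, 5 of the 9 receptor genes were called lower and 0 higher, with Mrgprd at -0.72 (edgeR adjusted p = 0.0173) and Lpar3 at -0.75 (adjusted p = 0.0075). The scaling genes themselves went both ways, Snap25 at -0.46 and Rbfox3 at -0.32, but Gap43 at 0.88 and Stmn2 at 0.39 (neither rise called). Their sum is thus no fixed measure of neuronal RNA, and this scaling does not test the part of the other cells' RNA. Mast cells carry Mrgprs of their own, and the mast cell receptor gene Mrgprb2 had 1 to 4 reads in each library. The 11 mast cell genes summed to 82.6 to 100 CPM on the injured side, 82.3 to 101 CPM on the contralateral side and 102 to 109 CPM without injury, with 1 of the 8 tested higher, Cma1.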

How the data were processed

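Expression was measured by RNA sequencing in 8 libraries of mouse dorsal root ganglia. The authors deposited raw read counts per gene, not normalized, for every library. The build was GRCm38 and the tools STAR 2.5.4a, featureCounts 1.6.3, cutadapt 1.16 and DESeq2, per the submitters' processing notes, which give no roles. Not given in the sources used here are the strand setting, the annotation release and the treatment of reads matching several genes; overlapping and near-identical genes may therefore share reads. GENCODE M21 matched 53706 of 53801 gene IDs and gave symbols, positions and exon lengths. Promoter windows came from RefSeq (GRCm38.p6).

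Tests used edgeR 4.0.16 in R 4.3.3 (quasi-likelihood, robust, TMM, filterByExpr at a count of 10 or more, p-values adjusted by Benjamini-Hochberg over all genes tested, threshold 0.05, two-sided). All 8 libraries entered the fit of the injury effect, with the pool as a block (3 residual degrees of freedom), the trend with injured state by log2 of the day (2), and the contralateral comparison with the no-injury libraries summed to 1 sample assumed to vary like the others (2). Each p-value reflects only the spread among these pools. Side ratios, which have no test, used TMM log2 CPM (prior count 2), a limit of 1.5-fold and genes with 50 or more reads in either library. The block follows from the design, in which mice serve as their own controls; deviations of the sides from their group means correlated by 0.249, -0.062 and 0.356 in the pools of days 1, 3 and 7. No pair of libraries agreed within sampling noise (lowest chi-square per gene 6.05). DESeq2 1.42.0 and limma 3.58.1 served as alternatives, next to other scalings and filters and leaving out each pool. Scripts were tested on simulated data. Limits from counts cover counting error only.

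The 9 genes, the lists and the tests were chosen with earlier results of these data known. Named are the 9 genes, other Mrgpr genes that passed the filter, for each of the 9 up to 3 protein-coding genes with the highest correlation (mean CPM of at least 1), up to 4 genes of each list with the lowest p, and the checks of labels and sex. Runx1, Nppb, Sst, Osmr, Wnt2b, Spp1, Mrgprb2 and the read ratios were chosen after their values were seen. Results for some genes that this rule names are not reported here.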

Additional observations from a re-analysis of the deposited data

How the results depend on the processing

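Of the injury effect's 5 lower members, 3 were called without the no-injury pool and 0 when the fit had side as a further term (set by the no-injury pool alone); leaving out 1 operated pool gave 2 to 7 lower (7 without day 1) and 0 to 1 higher. Without the day 3 pool, and against the no-injury libraries alone, 1 was higher, Il31ra both times. In the paired analysis the fit without the pool block gave 1558 higher and 1344 lower genes of all tested, against 1644 and 1302 with it; Mrgprb4 was then past the threshold (-0.88, adjusted p = 0.0317), and no other member's call changed. Mrgpra2a reversed to 0.55 with side as a further term and Cysltr2 to 0.22 against the no-injury libraries alone. For the trend, Mrgprx1 was at -0.021 with pan-neuronal scaling, and Mrgprb4 at 0.013 and Il31ra at 0.004 with day on a linear scale. The contralateral comparison called 1 member higher without a filter, by DESeq2 and with left and right as 2 samples; leaving out 1 library gave 0 to 2 higher and 0 to 1 lower, and Mrgpra2a ran from -0.479 to 0.098, the higher value without the day 7 library. With a 2-fold limit 1 member was lower at day 1 and 0 at day 7, and with a minimum of 10 reads 1, Mrgpra2a, was lower in the no-injury pool. The causes were not tested.

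Over all genes, the injury calls were 475 higher and 156 lower without the day 7 pool, 652 and 335 without day 3, 2382 and 2287 without day 1, 763 and 449 without the no-injury pool, 6 and 0 with side as a further term and 703 and 442 against the no-injury libraries alone; with pan-neuronal scaling 1610 and 751. The trend calls were 9 and 0 with size factors, 29 and 3 without a filter and 37 and 12 by DESeq2. The contralateral calls were 276 and 422 without a filter, 87 and 75 by DESeq2, 188 and 184 with left and right as 2 samples, and 27 and 64, 13 and 3, and 447 and 507 without the day 7, day 3 and day 1 library. The number of counted reads limits Mrgpra2a most, with 85 in all, and how reads shared with Mrgpra2b were counted is not given.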

Other observations

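Beyond the 9 receptor genes, a list of 28 other itch receptor and signalling genes, chosen with earlier results known, had 25 genes tested, of which 4 rose and 3 fell on the injured side (median log2 value 0.16). Across all genes tested 10.1% were called higher and 8.02% lower. The subunit genes of the interleukin-4 and interleukin-13 receptor rose. Il4ra was at 106, 125 and 121 CPM in the injured libraries of days 1, 3 and 7, compared with 70.7, 62.1 and 58.8 CPM in the contralateral libraries and 39.9 and 41.4 CPM without injury (log2 0.87 ± 0.08, SE, 3 pools; edgeR quasi-likelihood adjusted p = 0.0017). Il13ra1 was at 26.2, 42.2 and 48.3 CPM in the injured libraries, compared with 17.7, 17.8 and 16.7 CPM in the contralateral libraries and 15.5 and 15.3 CPM without injury (log2 1.12 ± 0.17; adjusted p = 0.0117). In both the 3 injured libraries stood above all others. Il4ra and Il13ra1 are known in macrophages and other non-neuronal cells as well, and the macrophage markers' part in these values was not tested. Htr7, a serotonin receptor gene linked to itch in mice, fell, with 17.8, 12.1 and 11.4 CPM in the injured libraries, compared with 24.9, 22.5 and 24.7 CPM in the contralateral libraries and 23.1 and 23.5 CPM without injury (log2 -0.83 ± 0.12; adjusted p = 0.00698). Its day 1 injured library stood nearest to the uninjured ones, as for Mrgprd. Of the other neuron lists, 1 of 6 C-low-threshold mechanoreceptor genes fell (P2ry1, -0.79), and of 9 peptidergic nociceptor genes 3 fell and 1, Adcyap1, rose (1.33). The median log2 values of these lists were -0.54 and -0.30.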
